A study of Caenorhabditis elegans with 12 samples.

Results

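The mir-51 family of Caenorhabditis elegans comprises miR-51 to miR-56, and its members were chosen by name from the deposited table of miRNA counts. They are the 6 guide arms cel-miR-51-5p, cel-miR-52-5p, cel-miR-53-5p, cel-miR-54-3p, cel-miR-55-3p and cel-miR-56-3p, together with cel-miR-51-3p, the other arm of the miR-51 precursor; the species prefix is left out below. These are 7 of the 471 features in the table, and all 7 were among the 250 that had enough counts to be tested. Small RNA was sequenced from whole L4 larvae, synchronized by bleaching and kept at 20 °C on OP50 bacteria, in animals with and without altered mbl-1, the gene of the worm Muscleblind protein, an RNA-binding regulator of splicing. There were 4 genotypes with 3 libraries each, which the labels call biological replicates: the wild-type strain N2, the deletion mutant mbl-1(tm1563) (tm1563 below), and a pair of lines carrying mbl-1(syb4318) or mbl-1(syb4345). Of this pair, one expresses a short and the other a long MBL-1 isoform. In the count table their columns are coded CR_MED and CR_SH, shortened here to ME line and SH line after the codes of the authors' comparison tables, which were matched by their likeness. No label ties a code to an allele or to an isoform length, and each genotype is represented by a single strain. The count columns named for the gene alone were taken as those of tm1563 by inference.

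A miRNA precursor hairpin yields a 5p and a 3p arm. The guide arm is loaded into an Argonaute protein and represses mRNAs that pair with its seed, while the other arm is mostly discarded. The 6 guide arms of the mir-51 family share a seed, and related miRNAs, the miR-99 and miR-100 family, occur in many other animals. In the worm the family is broadly expressed and acts redundantly: animals that lack all members die early, and the family is known for its role in keeping the pharynx attached to the mouth and for modulating the output of other miRNA pathways, among them those of developmental timing.

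The 6 hairpins lie at 3 sites of the WBcel235 assembly, which is also the build that the submitters' processing notes name. On chromosome IV, mir-51 occupies 11026013 to 11026112 and mir-53 occupies 11027593 to 11027691, both on the minus strand, with 1480 bases between them and no other annotated gene overlapping either hairpin. The nearest protein-coding gene to mir-51 is alh-3, at 143 bases. The third member on this chromosome, mir-52, lies at 14034008 to 14034107 on the plus strand, 3.01 megabases from mir-53, and overlaps an exon of the non-coding RNA gene Y37A1B.335 on the opposite strand. On the X chromosome, mir-56 (13144691 to 13144787), mir-55 (13144827 to 13144924) and mir-54 (13144996 to 13145094) are clustered on the minus strand with gaps of 39 and 71 bases. All 3 lie in an intron of the protein-coding gene F09A5.3, which runs on the opposite strand. The annotation also places a hairpin named mir-55b opposite mir-55. The guide arm is the 5p arm in the members on chromosome IV and the 3p arm in those on X.

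Library totals lay between 6946205 and 12053039 counts. Levels are in CPM, counts scaled to library size, after TMM scaling, which corrects for differences in library composition, and since a read covers a whole arm, levels were not divided by length. Ligation and amplification can differ by sequence, so the order of different arms is an order of reads, not of molecules. The arms of the family have similar sequences and may share reads, and how the submitters treated reads that match several miRNAs is not given in the sources used here, so each guide arm's own value is uncertain. A read that matches several arms may be counted for each of them. Wild-type library 1 stood apart with 326 detected features, against 365 to 400 in the others, and ME library 1 had the highest summed level of the guide arms. Results are also given without these libraries where that changes a call. Fold changes come from 1 edgeR quasi-likelihood fit to all 12 libraries, with p-values adjusted by the Benjamini-Hochberg method over the 250 features, and a feature was called at an adjusted p under 0.05. Animals were sampled whole, so a change in the number of cells that make a miRNA and a change in its amount per cell cannot be told apart.

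In wild type the family spanned a wide range. The most abundant member was miR-54-3p, at 17756, 22031 and 16826 CPM in libraries 1, 2 and 3, which ranked 13 among all features. Next came miR-51-5p at 7162, 5751 and 6243 CPM and miR-52-5p at 6377, 6890 and 5184 CPM, ranked 22 and 24. The libraries of these last arms overlapped, so their order was not resolved, whereas miR-54-3p was above both in every wild-type library.

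A step lower were miR-55-3p, at 1114, 865 and 1054 CPM, and miR-56-3p, at 1042, 792 and 1039 CPM, made from neighbouring hairpins, and their ranges also overlapped. The least abundant guide arm was miR-53-5p at 286, 343 and 242 CPM. The passenger arm miR-51-3p stood at 68.9, 83.5 and 69.1 CPM and ranked 95. The order of these steps was the same in all 12 libraries: miR-54-3p, then miR-51-5p and miR-52-5p, then miR-55-3p and miR-56-3p, then miR-53-5p, then miR-51-3p. The plot of levels by library shows these steps on a log axis.

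**Figure D1:**
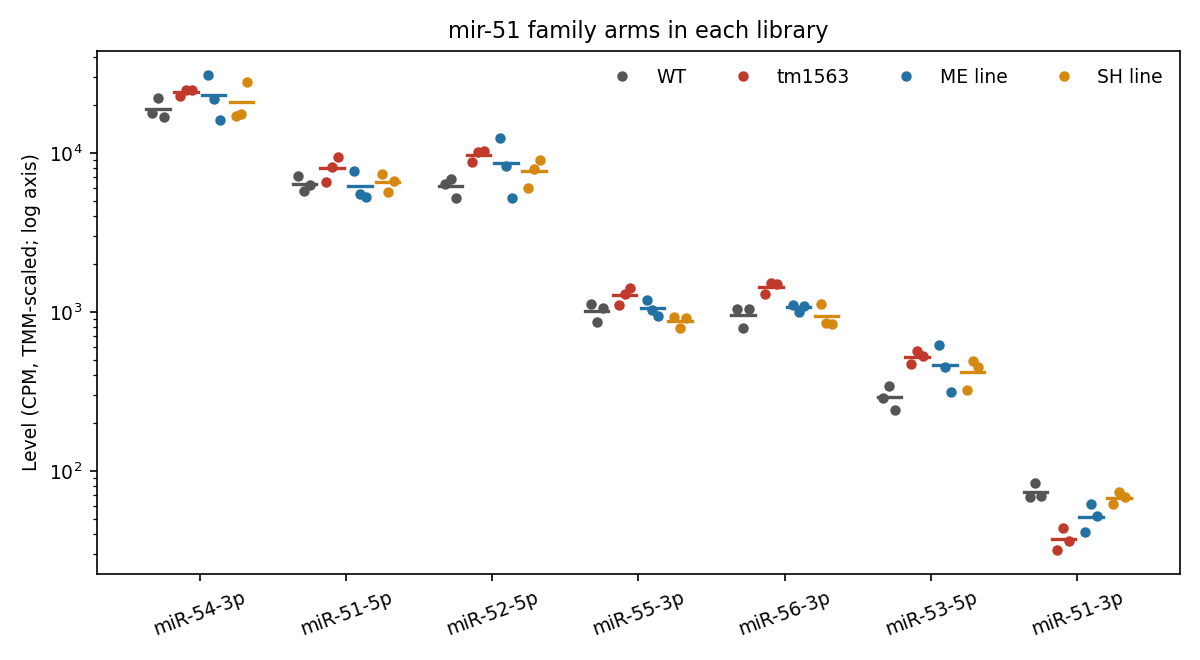
Level of each mir-51 family arm in CPM (log axis) for the 3 libraries (points) and their mean (line) in wild type (WT), tm1563, the ME line and the SH line. The tm1563 points of miR-53-5p lie between 470 and 564 CPM, above the wild-type points, and those of miR-51-3p lie between 31.9 and 43.9 CPM, below them.

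In tm1563 the arms of the family moved in opposite directions. The passenger arm miR-51-3p fell from 73.8 ± 8.37 to 37.3 ± 6.10 CPM (mean ± SD, n = 3 each), while miR-53-5p and miR-56-3p, both guide arms, rose. Thus 3 of 7 members were called, 2 higher and 1 lower, where edgeR called 10.0% of all features in this comparison, 5.2% higher and 4.8% lower. The libraries of both groups lay apart for 5 of the 7 members, against 34.4% of all features. The members and the comparison were chosen with earlier results of these data known.

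For miR-51-3p the tm1563 libraries held 31.9, 43.9 and 36.1 CPM, and each was below the lowest wild-type library. This amounted to a log2 fold change of -0.99, with an SE of 0.20 (edgeR adjusted p = 0.00681, lower in 3 of 3 libraries). Without tm1563 library 1 the adjusted p was 0.0643. In counts, miR-51-3p had 313, 351 and 316 reads in tm1563 and 461, 873 and 850 in wild type before scaling.

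The low-level guide arm miR-53-5p stood at 470, 564 and 530 CPM in tm1563, and all 3 libraries lay above the wild-type range. Its log2 fold change was 0.85 (SE 0.23, edgeR adjusted p = 0.0398). The call was lost when wild-type library 1 or 3 or any 1 tm1563 library was left out, with adjusted p values up to 0.134, while the log2 fold change stayed between 0.71 and 0.98 over all alternatives tried.

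The X-linked guide arm miR-56-3p rose to 1292, 1520 and 1503 CPM, again above every wild-type library, by 0.59 on the log2 scale (SE 0.17, edgeR adjusted p = 0.0420). This call did not hold without any 1 of the 6 libraries, with adjusted p values from 0.0604 to 0.240, and was also lost with RLE size factors (adjusted p = 0.0667), with library totals (0.0508), with a replicate block (0.0547) and without the filter on low counts (0.164). The abundant arm miR-52-5p, whose sequence is close to that of miR-53-5p, had 8766, 10157 and 10288 CPM in tm1563, all above wild type. Its difference of 0.66 on the log2 scale (SE 0.25) did not pass the test (edgeR adjusted p = 0.101), though it did in the fit of these 2 groups alone (edgeR adjusted p = 0.0223) and without both wild-type library 1 and ME library 1 (0.0412).

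The remaining guide arms had positive log2 fold changes that did not pass. For miR-54-3p, the largest contributor to the family, the value was 0.35 (95% interval -0.15 to 0.85), and its tm1563 libraries at 22655, 24678 and 24731 CPM lay above those of wild type. For miR-51-5p it was 0.33 (-0.06 to 0.73) and for miR-55-3p 0.33 (-0.02 to 0.69), both with groups that overlapped. Over the 6 guide arms the median log2 fold change was 0.47, against 0.03 over all features tested. With library totals in place of TMM the median of all features was 0.15, and all 6 guide arms were positive under every alternative. Of the 51 features in the authors' deposited table for tm1563, 4 are members: miR-51-3p at a log2 fold change of -1.03, miR-53-5p at 0.75, miR-52-5p at 0.58 and miR-56-3p at 0.50.

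**Figure D2:**
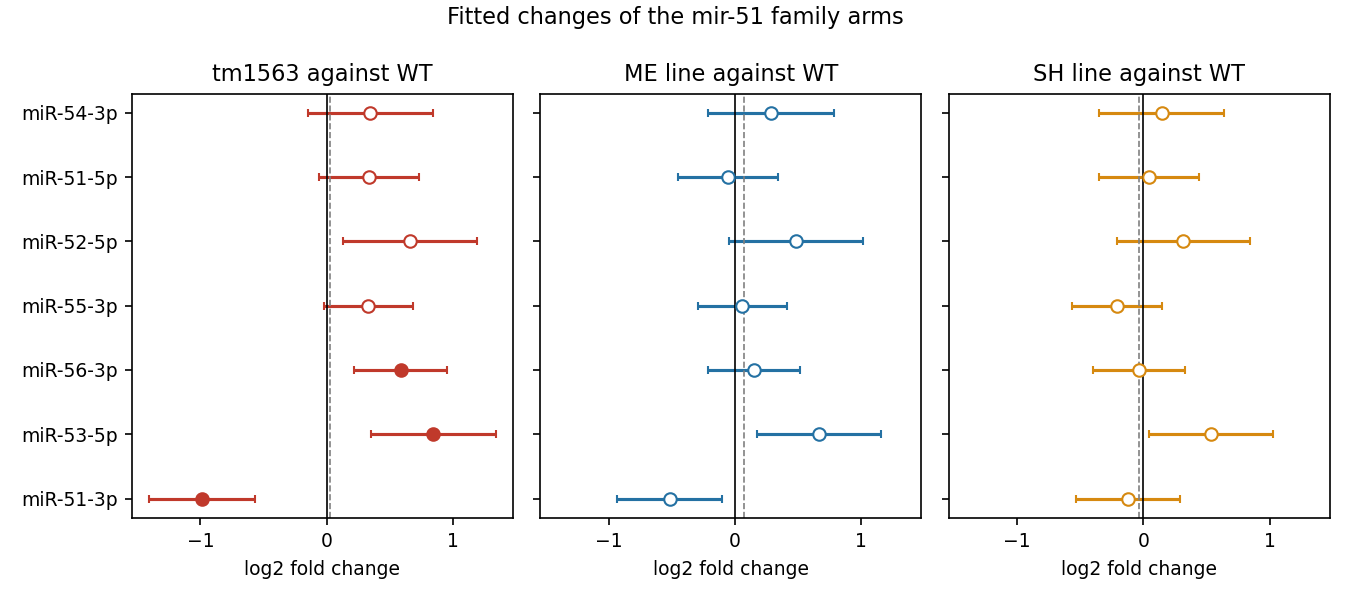
Log2 fold change of each arm against wild type in tm1563, the ME line and the SH line, with 95% intervals from the edgeR fit; filled points were called at an adjusted p under 0.05 and the dashed line is the median of all features tested. In tm1563 the 3 called arms are miR-53-5p at 0.85, miR-56-3p at 0.59 and miR-51-3p at -0.99, and in the ME and SH lines all points are open.

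Both arms of miR-51 come from the same hairpin, and their ratio within a library does not depend on scaling between libraries. In wild type there were 104, 68.9 and 90.4 reads of miR-51-5p for each read of miR-51-3p, and in tm1563 there were 207, 187 and 259, so the groups did not overlap. On the log2 scale the mean ratio was 6.44 ± 0.30 in wild type and 7.75 ± 0.24 in tm1563 (SD, n = 3 each), a difference of 1.32. The exact two-sided permutation p was 0.1, the smallest that 3 libraries against 3 allow, and 0.3 adjusted over the 3 comparisons with wild type.

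In the ME line the ratio was spread out, at 186, 89.5 and 102, with only library 1 above the wild-type range. In the SH line it was 120, 77.1 and 97.0, which overlapped wild type. The differences on the log2 scale were 0.46 for the ME line (exact permutation p = 0.5, adjusted 0.6) and 0.16 for the SH line (exact permutation p = 0.6, adjusted 0.6).

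The table lists 5 further arms from the family's hairpins, all of them passenger arms, and 4 were tested. The most abundant, miR-54-5p, stood at 300, 246 and 276 CPM in wild type, at 185, 218 and 180 in tm1563 and at 181, 195 and 159 in the SH line. Both mutant groups lay below wild type, with log2 fold changes of -0.50 (SE 0.17, edgeR adjusted p = 0.0725) and -0.62 (SE 0.17, edgeR adjusted p = 0.0662), so neither passed here. The authors' deposited tables list this arm as lower in tm1563, at -0.56, and in the SH line, at -0.57. In the ME line miR-54-5p had 227, 250 and 310 CPM, which overlapped wild type, and it exceeded the SH line by 0.56 on the log2 scale (SE 0.17, edgeR adjusted p = 0.0362).

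The other tested passenger arms were scarce. In tm1563 the log2 fold change was -0.48 for miR-52-3p, at 12.1 ± 3.16 CPM against 17.0 ± 9.51 in wild type, -0.00 for miR-55-5p and 0.63 for miR-56-5p, which held 48 reads or fewer in every library, and none passed the test. The counts of miR-55-5p equalled those of the feature miR-55b in all 12 libraries, so its reads, and with them the miR-55 arm ratio, cannot be assigned to the miR-55 hairpin. The untested arm miR-53-3p had between 1 and 14 reads in each library.

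The shift of the miR-51 arm ratio can be set beside those of the 80 precursors with both arms tested, taking for each the log2 ratio of its more abundant to its less abundant arm with 0.5 counts added to both. Ranks run from the most positive shift down. In tm1563 minus wild type the miR-51 precursor ranked 2, at 1.32, after miR-90 at 1.55, whereas the median precursor shifted by 0.14. In the opposite direction miR-788 shifted by -1.70, the largest shift in size, and let-7 by -1.12. Of the family, miR-52 ranked 4, at 1.06, and miR-54 ranked 9, at 0.85. The miR-52 shift depends in part on wild-type library 1, where miR-52-3p stood at 27.8 CPM, against 13.1 and 10.0 in libraries 2 and 3. The precursors miR-55, at 0.30, and miR-56, at -0.07, whose hairpins lie 71 and 208 bases from that of miR-54, ranked 29 and 51. The miR-55 ratio cannot be assigned to its hairpin, as said above. That of miR-56 rests on 15, 16 and 8 reads of miR-56-5p in wild type and 21, 12 and 25 in tm1563. These ranks describe the 6 libraries of wild type and tm1563 and carry no test. In the SH line miR-51, miR-52 and miR-54 shifted by 0.16, 0.83 and 0.73, and miR-55 and miR-56 by -0.17 and -0.32. The median precursor there shifted by 0.21. In the ME line the values in the same order were 0.46, 0.43, 0.31, -0.55 and -1.09, with a median of -0.21.

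**Figure D3:**
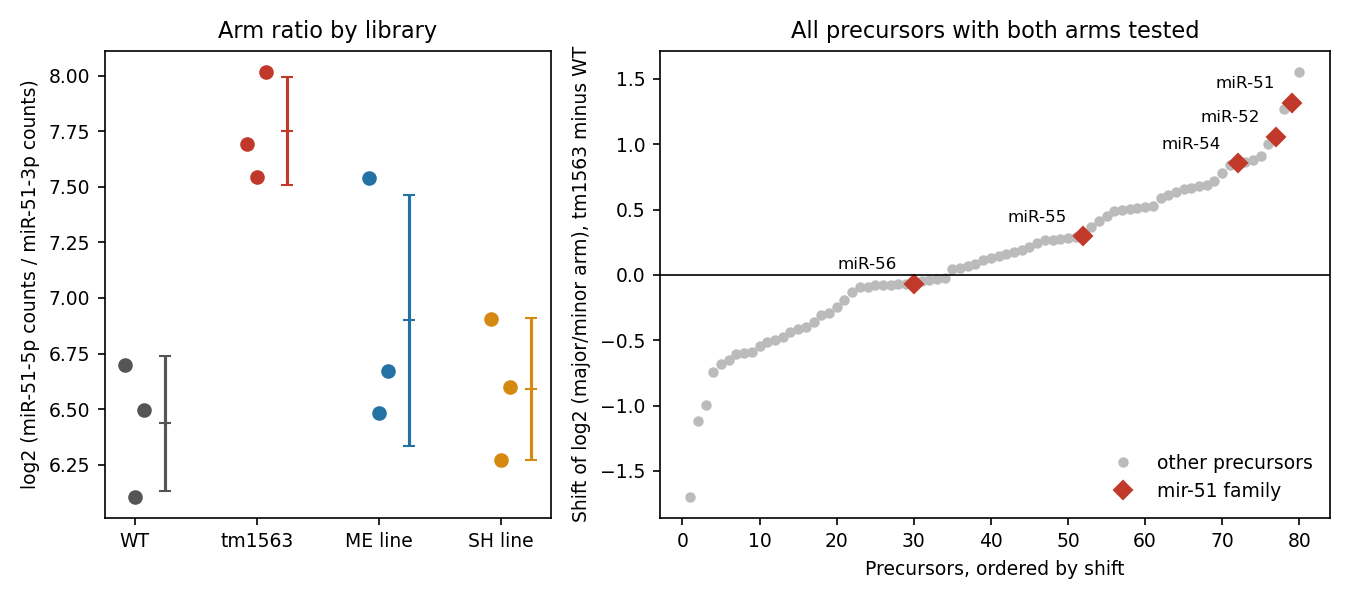
Left, log2 ratio of miR-51-5p to miR-51-3p counts in each library (points) with the mean and SD of each genotype beside them. Right, shift of the log2 ratio of major to minor arm in tm1563 minus wild type for 80 precursors, ordered from most negative to most positive. The mir-51 family is shown as diamonds: miR-51 is second from the top at 1.32 and miR-56 lies at -0.07.

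In the ME line 0 of the 7 members were called by edgeR, where 13.6% of all features were, and 2 members had an unadjusted p under 0.05. By DESeq2 1 was called, miR-51-3p. This arm stood at 41.0, 61.9 and 51.8 CPM, below every wild-type library, and differed by -0.52 on the log2 scale (SE 0.20, edgeR adjusted p = 0.0806). It passed with RLE size factors (edgeR adjusted p = 0.0421), by DESeq2 (adjusted p = 0.0158) and without ME library 2 (edgeR adjusted p = 0.0465). It was the 1 member whose ME and wild-type libraries lay apart, against 34.0% of all features.

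The guide arms of the ME line varied widely between libraries. For miR-52-5p they held 12436, 8239 and 5178 CPM, for miR-53-5p 620, 451 and 312 CPM, and for miR-54-3p 31057, 21700 and 16142 CPM. In each of these arms library 1 was high and library 3 lay within the wild-type range or, for miR-52-5p and miR-54-3p, just below it. The log2 fold changes were 0.67 (SE 0.23, edgeR adjusted p = 0.0610) for miR-53-5p, 0.49 (95% interval -0.04 to 1.02) for miR-52-5p and 0.28 (-0.21 to 0.78) for miR-54-3p. Without ME library 1 the value of miR-53-5p was 0.36 (edgeR adjusted p = 0.310), and without ME library 3 it was 0.77 and passed (edgeR adjusted p = 0.0274). The arms miR-51-5p, miR-55-3p and miR-56-3p spread less between the ME libraries, and their log2 fold changes were -0.05, 0.06 and 0.15, with intervals that reached from -0.45 to 0.52. The first changed sign with library totals and the second with RLE size factors.

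In the SH line 0 of the 7 members were called by edgeR or by DESeq2, where edgeR called 2.0% of all features. One member, miR-53-5p, had an unadjusted p under 0.05. It stood at 323, 489 and 449 CPM, with library 1 inside the wild-type range, and its mean difference was 0.53 on the log2 scale (SE 0.23, edgeR adjusted p = 0.288). For miR-51-3p, at 61.6, 73.2 and 68.9 CPM, the log2 fold change was -0.12 (95% interval -0.53 to 0.29). The other guide arms lay between -0.21 for miR-55-3p and 0.32 for miR-52-5p. In miR-54-3p, library 3 at 28020 CPM stood well above libraries 1 and 2 at 16958 and 17568. The SH and wild-type libraries overlapped for all 7 members, whereas 17.2% of all features lay apart.

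The 3 comparisons with wild type share the same wild-type libraries, so their values are given side by side. For miR-53-5p the log2 fold changes were 0.85 in tm1563, 0.67 in the ME line and 0.53 in the SH line, and for miR-52-5p they were 0.66, 0.49 and 0.32. For miR-51-3p they were -0.99, -0.52 and -0.12, and for miR-56-3p 0.59, 0.15 and -0.04, the last changing sign with RLE size factors and with library totals.

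Comparing the mutants directly, miR-51-3p was lower in tm1563 than in the SH line. The difference was -0.87 on the log2 scale (SE 0.20, edgeR adjusted p = 0.0396), and the libraries lay apart. This was the 1 member called of 7, where edgeR called 2.0% of all features and 0.4% as lower, that is, miR-51-3p alone. The call was lost without tm1563 library 1 or 3 or without SH library 2 or 3, with edgeR adjusted p values up to 0.138, and with library totals (0.155). The 6 guide arms had log2 fold changes of 0.20 to 0.62 in tm1563 against the SH line, and none passed the edgeR test or DESeq2, with 2 of them at an unadjusted p under 0.05. The nearest were miR-56-3p at 0.62 (edgeR adjusted p = 0.0707) and miR-55-3p at 0.54 (0.0998), each with libraries that lay apart. Without both wild-type library 1 and ME library 1 these arms passed too (edgeR adjusted p = 0.0329 and 0.0369).

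Between tm1563 and the ME line edgeR called 0 members, against 9.6% of all features, with 2 members at an unadjusted p under 0.05 and 0 called by DESeq2. For miR-51-3p the log2 fold change was -0.47 (SE 0.20, edgeR adjusted p = 0.134), or -0.70 without ME library 1 (edgeR adjusted p = 0.0412). For miR-56-3p it was 0.43 (SE 0.17, edgeR adjusted p = 0.115), with libraries that lay apart. Between the ME and SH lines edgeR called 0 members, against 14.4% of all features, with 0 at an unadjusted p under 0.05. DESeq2 called 1, miR-51-3p, at -0.55 (adjusted p = 0.0480), where edgeR gave -0.40 (edgeR adjusted p = 0.194).

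The sum of the 6 guide arms is independent of how reads were divided among them only if each read was counted once, which is not known. After TMM scaling it came to 33738, 36672 and 30589 CPM in wild type and to 40886, 46409 and 47824 CPM in tm1563. On this scale every tm1563 library lay above every wild-type library. The ME libraries held 54033, 37960 and 28954 CPM and the SH libraries 32753, 33276 and 45920 CPM, each group overlapping wild type. Relative to wild type the mean sum was 1.34-fold in tm1563, 1.20-fold in the ME line and 1.11-fold in the SH line. As a share of all counts the guide arms made up 3.23% ± 0.638 in wild type, 4.70% ± 0.965 in tm1563, 4.02% ± 1.31 in the ME line and 3.86% ± 0.962 in the SH line (mean ± SD, n = 3 each). By this share wild type and tm1563 overlapped, with 2.66%, 3.92% and 3.12% against 3.73%, 4.70% and 5.66% in their libraries. No p is given for the sum, since it is a score over chosen members. Leaving out single libraries, its log2 ratio to wild type stayed between 0.36 and 0.49 in tm1563 but ran from -0.01 to 0.45 in the ME line and from -0.03 to 0.23 in the SH line.

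Within the sum, miR-54-3p made up 55.9% ± 3.80 in wild type, 53.4% ± 1.86 in tm1563, 56.8% ± 0.921 in the ME line and 55.2% ± 5.07 in the SH line. The share of miR-52-5p was 18.9%, 18.8% and 17.0% in the wild-type libraries and 21.4%, 21.9% and 21.5% in those of tm1563, which did not overlap. The share of miR-53-5p was 0.848%, 0.934% and 0.791% in wild type, and it was higher in all 9 mutant libraries, at 1.11% to 1.21% in tm1563, 1.08% to 1.19% in the ME line and 0.977% to 1.47% in the SH line. The shares of miR-51-5p, miR-54-3p, miR-55-3p and miR-56-3p overlapped between wild type and each mutant. That of miR-52-5p overlapped wild type in the ME and SH lines. How often shares within other sets of arms lie apart was not computed.

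**Figure D4:**
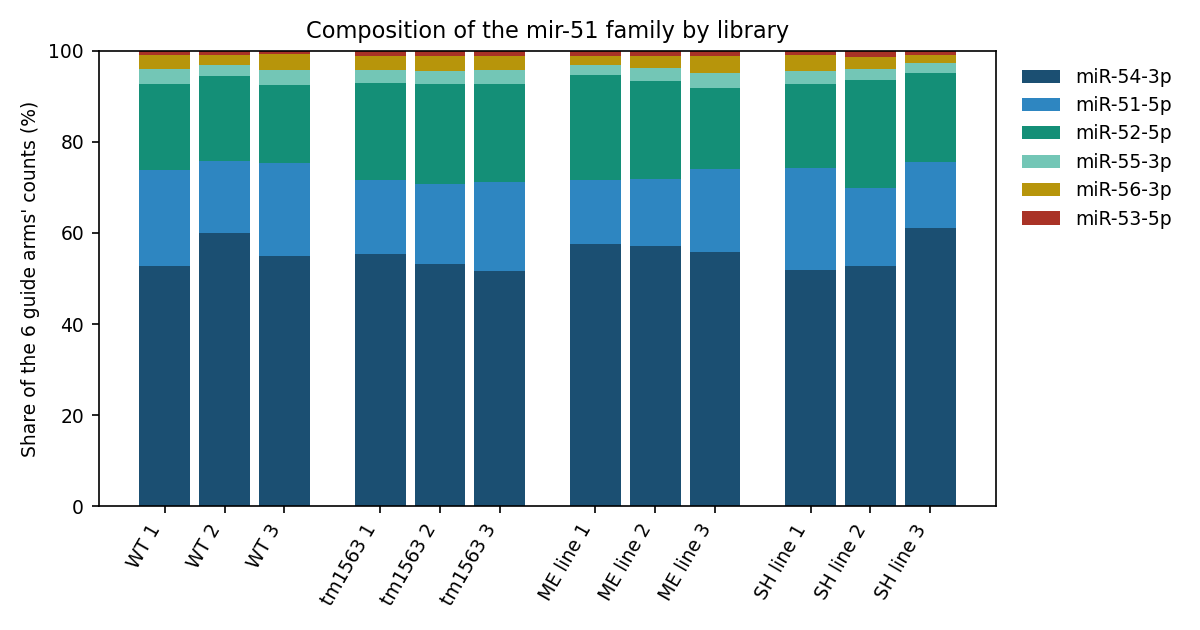
Share of each guide arm in the summed counts of the 6 guide arms, in percent, for each of the 12 libraries. In every library miR-54-3p is the largest part, at 51.7% or more, and the share of miR-52-5p is 21.4% to 21.9% in the 3 tm1563 libraries.

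The X-linked arms together had 1.44, 1.83 and 1.62 times the counts of the chromosome IV arms in the wild-type libraries and 1.58, 1.45 and 1.37 times in tm1563. The groups overlapped, and the difference of the mean log2 ratio was -0.14 (exact two-sided permutation p = 0.3, adjusted 0.8 over 3 comparisons). In the ME line the difference was 0.03 (exact permutation p = 0.8, adjusted 0.8) and in the SH line -0.10 (exact permutation p = 0.6, adjusted 0.8).

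Pairs of guide arms differed in how closely they kept their ratio over the 12 libraries, measured by the SD of the log2 ratio of their counts. The closest pair was miR-52-5p and miR-53-5p, with an SD of 0.14: miR-53-5p had 4.49% to 6.16% as many reads as miR-52-5p in every library, although their hairpins lie 3.01 megabases apart. Next were miR-55-3p and miR-56-3p, which adjoin on X, with an SD of 0.15. The pair miR-51-5p and miR-55-3p, on different chromosomes, had an SD of 0.17, and miR-52-5p and miR-54-3p, also on different chromosomes, 0.18.

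By contrast the ratio of miR-51-5p to miR-53-5p, whose hairpins are 1480 bases apart, had an SD of 0.40. The clustered miR-54-3p and miR-56-3p had an SD of 0.40 too. Read across all 15 pairs, miR-51-5p, miR-55-3p and miR-56-3p kept their ratios to each other within an SD of 0.22, as did miR-52-5p, miR-53-5p and miR-54-3p within 0.27. Every pair across these sets had an SD of at least 0.29. The sets were drawn from these values and were not tested. For comparison, the median SD over the 2346 pairs of the 69 features with at least 1000 counts in each library was 0.42, and 14 of the 15 guide pairs lay below it. Of these 2346 pairs, 13 had an SD as low as that of miR-52-5p and miR-53-5p. Pairs in a library share its depth, preparation and any reads that match both arms.

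**Figure D5:**
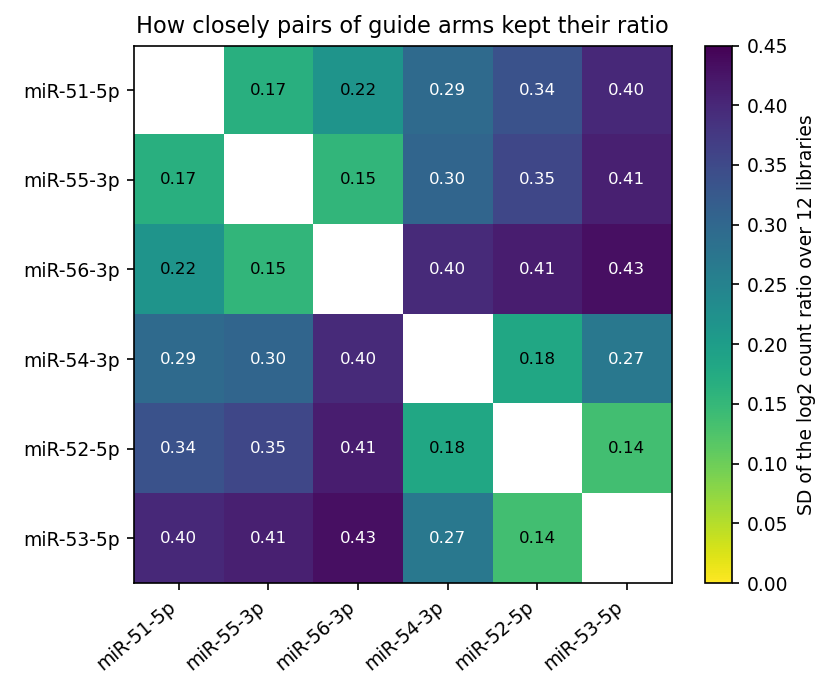
SD over the 12 libraries of the log2 ratio of counts for each pair of guide arms, with the arms placed so that pairs with low SD stand together. The 3 arms miR-51-5p, miR-55-3p and miR-56-3p form one block with values up to 0.22, and miR-54-3p, miR-52-5p and miR-53-5p another with values up to 0.27.

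Small shifts between arms were seen inside some of these close pairs, and the share of all pairs that lay apart was not computed. For 100 reads of miR-55-3p there were 93.6, 91.6 and 98.5 of miR-56-3p in the wild-type libraries and 116, 117 and 106 in tm1563, which did not overlap. For 100 reads of miR-54-3p there were 35.9, 31.3 and 30.8 of miR-52-5p in wild type and 38.7, 41.2 and 41.6 in tm1563, again apart. For 100 reads of miR-52-5p there were 4.49, 4.97 and 4.67 of miR-53-5p in wild type and 5.36, 5.55 and 5.16 in tm1563, also apart. In the ME and SH lines the first and second of these ratios overlapped wild type. The third lay at 4.98 to 6.03 in the ME line, just above the wild-type libraries, and at 4.97 to 6.16 in the SH line. Between wild type and tm1563 the ratio of miR-55-3p to miR-51-5p, another close pair, overlapped. For 100 reads of miR-54-3p there were 6.27, 3.93 and 6.27 of miR-55-3p in wild type and 4.90, 5.25 and 5.72 in tm1563, which overlapped too.

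Other miRNAs were ranked by how closely their level followed that of the family, taking the root mean square difference of centred log2 CPM over the 12 libraries. Of 239 features outside the family, the nearest to the guide arm sum were miR-249-3p (0.17), miR-244-5p (0.19) and miR-229-5p (0.20), where the median feature stood at 0.48. The nearest to miR-51-3p were miR-785-3p (0.22), miR-59-3p (0.27) and miR-784-5p (0.27), with a median of 0.60. Of these, miR-785-3p stood at 351 ± 9.47 CPM in wild type, 225 ± 12.9 in tm1563, 274 ± 62.1 in the ME line and 343 ± 46.8 in the SH line (mean ± SD, n = 3 each). Like miR-51-3p it was lowest in tm1563 and next lowest in the ME line, which follows from its being picked for a similar profile.

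Markers of developmental stage were read beside these values. The 5 timing miRNAs lin-4-5p, let-7-5p, miR-48-5p, miR-84-5p and miR-241-5p, which increase during larval life, held 0 calls in any of the 6 comparisons by edgeR or DESeq2, with 0 at an unadjusted p under 0.05, and in tm1563 their log2 fold changes lay between -0.04 and 0.24. The 8 guide arms of the mir-35 family, which mark embryos and gravid adults, held 0 edgeR or DESeq2 calls in the 3 comparisons with wild type, with 1 or 2 at an unadjusted p under 0.05 in each. Their median log2 fold change in tm1563 was 0.33, with a range of -0.90 to 0.42. The lowest was that of miR-41-3p (SE 0.91), which held 1 to 14 reads in each library. The other arms lay between -0.06 and 0.42. Of 7 tissue miRNAs, edgeR called 3 in tm1563, against 10.0% of all features, with 4 at an unadjusted p under 0.05. The called ones were miR-57-5p of posterior cells, at a log2 fold change of 0.83, and the neuronal miR-790-5p, at 1.33, both higher, and the gonad miRNA miR-246-3p, lower at -0.64. The others were the neuronal miR-791-3p at 1.74 (edgeR adjusted p = 0.0649), miR-124-3p at 0.0053 and lsy-6-3p at -0.022, and the muscle miRNA miR-1-3p at -0.32, and the list's median was 0.0053 against 0.03 over all features. The ME line had calls for the same 3, with miR-790-5p lower, and the SH line had 0 by edgeR or DESeq2, with 0 at an unadjusted p under 0.05. The part of stage or tissue makeup in the family's values was not tested.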

How the data were processed

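The authors deposited whole-number read counts per mature miRNA arm, with no normalization, for 12 small RNA libraries (inserts of 18 to 40 nt, reads of 50 nt). Bowtie, DESeq2 and WBcel235 were named per the submitters' processing notes; their versions, the mismatches allowed and the counter were not stated in the labels. The authors' deposited comparison tables gave log2 fold changes and p-values, used only where named. The table's per-million columns were not used, and 0 library columns were left unmapped. Totals of 6946205 to 12053039 counts put 3 counts at 0.249 to 0.432 CPM; such limits cover counting error only.

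Features were filtered with filterByExpr (minimum count 10, minimum total 15) and tested with edgeR 4.0.16 (glmQLFit, robust, in R 4.3.3; TMM; 1 mean per genotype, no block), with Benjamini-Hochberg adjustment over 250 features at 0.05. SE is the log2 fold change divided by the square root of F. The procedure was tested on simulated data. Alternatives were RLE factors, library totals, no filter, DESeq2 1.42.0, the groups compared alone, a replicate block, the guide arms summed to 1 feature (read only for the calls of other features), and each library left out. The tests of arm ratios were exact permutations (scipy 1.17.1). Replicate libraries differed far beyond sampling noise, so each was counted as 1 sample; nothing says whether they came from separate cultures, so p-values measure the spread between libraries. By rule all 7 members were named, with the other arms of the hairpins and the 3 features nearest in profile. Members and lists were chosen with earlier results of these data known. Hairpin positions are from Ensembl's annotation.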

Additional observations from a re-analysis of the deposited data

How the results depend on the processing

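Over the 6 comparisons, the 7 members' log2 fold changes were recomputed 552 times under the alternatives. Of these, 479 kept their direction and side of the threshold, 21 lost a call, 10 gained one, and 42 changed sign, 0 of them for a called value. In tm1563 against wild type 3 members were called, 2 higher and 1 lower, and leaving out single libraries gave 0 to 2. The 4 fits without wild-type library 1 or 3 or tm1563 library 2 or 3 gave 1 (miR-51-3p) and that without tm1563 library 1 gave 0. In the ME line against wild type the count went from 0 to 1 with RLE size factors and DESeq2, and 0 to 1 over single libraries left out. For ME against SH it was 1 with DESeq2, for tm1563 against ME 0 to 1 over libraries left out, and for tm1563 against SH 0 with library totals and 0 to 1 over libraries left out. Without both wild-type library 1 and ME library 1, chosen after seeing the data, the count was 3 in tm1563 against SH. In tm1563 against wild type it was 4 without them. The causes were not tested. With a replicate block the tm1563 count against wild type was 2. The call lost was that of miR-56-3p (edgeR adjusted p = 0.0547), and the block changed no other member's call. Deviations of libraries of equal number had r from -0.57 to 0.39 over 18 pairs, 4 above 0.1. Those of unequal number had r from -0.43 to 0.54. This check cannot tell whether libraries of equal number shared a batch.

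Signs turned only in values that were not called. With RLE size factors and with DESeq2 these were miR-53-5p and miR-54-3p in ME against SH (-0.025 each by both), miR-55-3p in ME against wild type (-0.053 by both) and miR-56-3p in SH against wild type (0.0097 by both). With library totals they were miR-51-5p in ME (0.017) and miR-56-3p in SH (0.084), without the filter miR-55-3p in ME (-0.010), and with the groups alone miR-56-3p in SH (0.0090). Without both libraries named above they were miR-54-3p in ME against wild type (-0.045), miR-52-5p, miR-53-5p and miR-54-3p in ME against SH (-0.19, -0.14 and -0.14) and miR-56-3p in SH (0.020). With single libraries left out the ranges were, against wild type in ME, -0.27 to 0.051 for miR-51-5p, -0.030 to 0.41 for miR-54-3p and -0.065 to 0.13 for miR-55-3p; in SH, -0.035 to 0.13 for miR-51-5p, -0.13 to 0.31 for miR-54-3p and -0.16 to 0.035 for miR-56-3p. In ME against SH they were -0.25 to 0.31 for miR-52-5p, -0.19 to 0.26 for miR-53-5p and -0.20 to 0.42 for miR-54-3p. In tm1563 against ME they were -0.082 to 0.46, -0.037 to 0.37 and -0.14 to 0.26 for the same arms, and in tm1563 against SH -0.075 to 0.49 for miR-54-3p.

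Over all features, the number called ran from 5 to 41 in tm1563 against wild type (25 as reported), 10 to 52 in ME (34), 0 to 10 in SH (5), 12 to 43 in ME against SH (36), 13 to 40 in tm1563 against ME (24) and 0 to 18 in tm1563 against SH (5). The split in tm1563 against wild type was 13 higher and 12 lower, or 14 and 1 with library totals. With 3 libraries a group, the exact permutation tests of ratios cannot go below p = 0.1.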
